A study of Mus musculus with 386 samples.

Results

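The genes described here are Mcm2, Mcm3, Mcm4, Mcm5, Mcm6, Mcm7, Pcna, Top2a, Mki67 and Ccne1, 10 of the 54658 gene rows in a count table of single mouse female germ cells. They were chosen by name, as the subunits of the replicative helicase and genes widely used to recognise dividing cells. The cells were female germ cells picked from dissociated ovaries at E17.5 (day of embryonic life), P2.5 and P6.5 (days of postnatal life), with 1 Smart-seq2 library per cell. The labels give no strain, genotype or treatment, and the series title asks about gene networks of the choice that oocytes make in primordial follicles. The labels also name no animal, litter or pool, so a stage was treated as 1 sample of many cells, no difference between stages could be tested, and the cells of a stage are not replicates of it.

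Before S phase, the origin recognition complex, Cdc6 and Cdt1 load the hexamer of Mcm2 to Mcm7 onto DNA, a step called licensing, and the loaded ring becomes the helicase of the replication fork. Pcna is the sliding clamp that holds the polymerases, Top2a is the topoisomerase that untangles replicated chromosomes, Mki67 coats mitotic chromosomes, and Ccne1 is a cyclin that drives entry into S phase. Oocytes replicate their DNA for the last time before meiotic prophase, which they enter in the fetal ovary, and after birth they rest in prophase arrest. Their stored RNAs serve the embryo after fertilisation.

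Of the 386 libraries, 22 were from E17.5, 47 from P6.5 and the others from P2.5. At P2.5, 24 pairs of libraries were near-identical and were each summed to 1 cell, for 362 cells in all, of which 22 were E17.5 cells, 47 were P6.5 cells and the rest P2.5 cells. Library totals were 1016746 to 16125066 counts at E17.5, 435560 to 23982709 at P2.5 and 5714357 to 15799302 at P6.5. The median ratio of gene counts to counts of the added ERCC spike-in RNAs was 81.3 at E17.5, 465 at P2.5 and 3203 at P6.5. Values are given as counts per 1000000 gene counts of the library (CPM) and relative to the spike-in counts. The amount of spike-in added to each cell is not stated in the sources used here, so a change per spike-in count holds only where equal amounts were added at the 3 stages. Markers of germ cells (Ddx4, Dazl, Dppa3, Mael, Taf4b and Sycp3) summed to 2002 to 7680 CPM in P2.5 cells and 3636 to 6741 CPM in P6.5 cells. At E17.5 they were under 1000 CPM in libraries 8, 10, 15 and 16 (246.6 to 705 CPM) and 1175 to 5294 CPM in the other 18. These 4 are called the marker-poor libraries, and values of the 10 genes and counts of the lists are also given without them where they bear on a statement. Summed erythroid markers were at 214.3 to 5863 CPM in the E17.5 libraries (median 1734 CPM), with medians of 9.40 CPM at P2.5 and 0.988 CPM at P6.5. Summed mast cell markers lay between 1390 and 111912 CPM in libraries 1 to 10 of E17.5, whereas libraries 11 to 22 had 0 to 25.4 CPM.

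All 10 transcripts were counted at both postnatal stages. At P2.5, 4 of the 10 genes (Top2a, Mki67, Mcm3 and Mcm5) had a CPM at least 2-fold below that of E17.5 and 0 were at least 2-fold higher, with 0.5 CPM added to both levels before a gene was held against the limit. Among all 17421 genes measured in that comparison, 32.4% were at least 2-fold lower and 22.6% higher. The median log2 ratio of the 10 genes was -0.89, against -0.26 over all measured genes. Top2a differed most, with a CPM 10.5-fold below that of E17.5, while Pcna was 1.40-fold and Mcm4 1.41-fold lower. Without the 4 marker-poor libraries, 3 genes were at least 2-fold lower, against 32.7% of 17378 measured genes, and 0 were higher, against 23.1%. From P2.5 to P6.5, 0 of the 10 genes passed 2-fold in either direction, where 9.3% of 14643 measured genes were at least 2-fold lower and 6.9% higher. These 2 comparisons share the P2.5 cells.

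**Figure D1:**
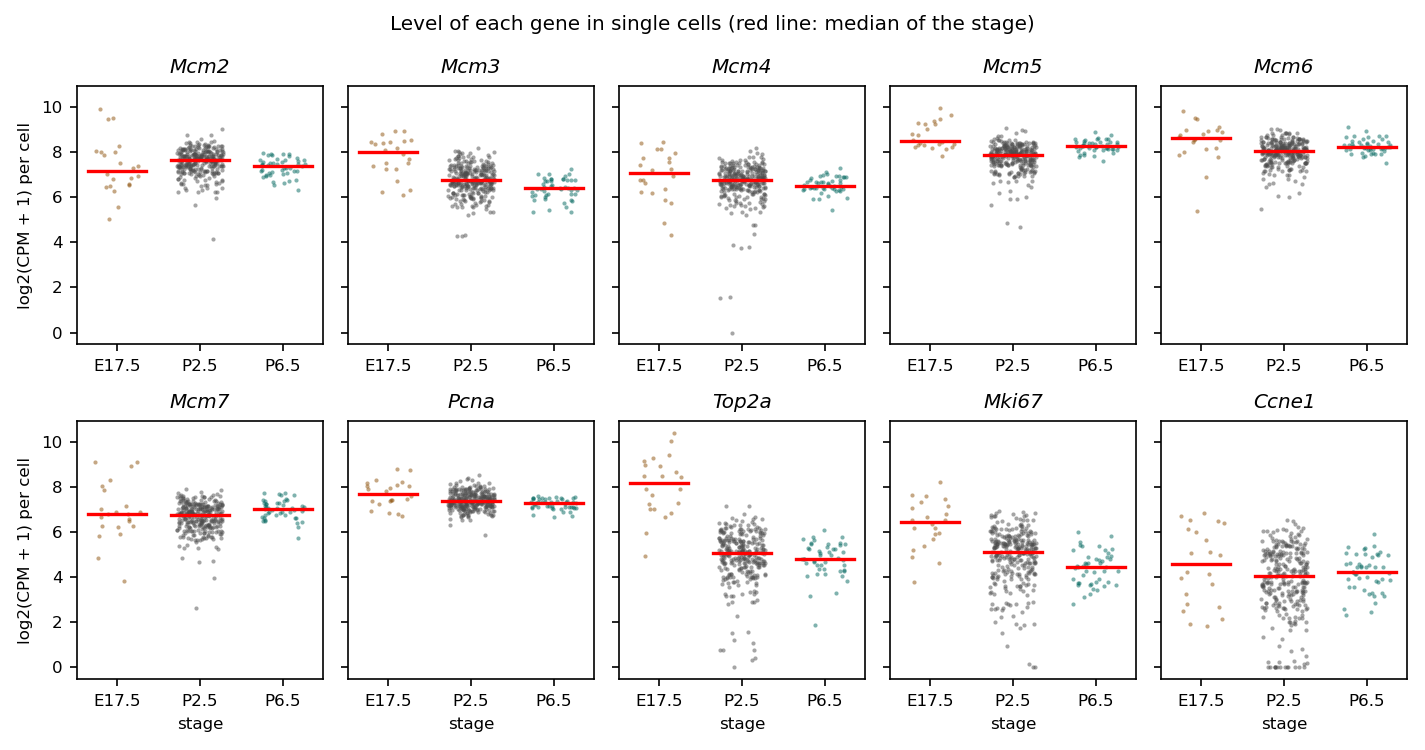
Level of each gene in every cell, as log2(CPM + 1) on the vertical axis, by stage on the horizontal axis; 1 point is 1 cell (362 in all) and the red line is the stage's median. The Top2a points of P2.5 and P6.5 lie below most E17.5 points, whereas the 3 stages overlap over most of their ranges for Mcm2, Mcm4, Mcm7 and Ccne1.

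The helicase subunits were counted in nearly every cell. After thinning each cell to 400000 counts, Mcm2, Mcm3, Mcm5, Mcm6, Mcm7 and Pcna had a count in 100% of cells of each stage, and Mcm4 in 99.7% of P2.5 cells. Top2a had a count in 97.3% of P2.5 cells, Mki67 in 97.95% and Ccne1 in 89.1% (exact Clopper-Pearson 95% interval 84.9% to 92.4%, with the cells as independent draws). Without thinning, the share for Ccne1 was 95.6%. Genes of other organs, taken as the background, had a median share of 1.54% in thinned P2.5 cells. The highest share among them was that of Umod, a kidney gene, at 40.3%.

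In the GENCODE M21 annotation of GRCm38, the build that the labels call mm10, Mcm5 lies on the plus strand and the other 9 genes on the minus strand. The helicase genes are at chr6:88883474-88898780 (Mcm2), chr1:20802968-20820312 (Mcm3), chr16:15623897-15637400 (Mcm4), chr8:75109569-75128439 (Mcm5), chr1:128331590-128359664 (Mcm6) and chr5:138164583-138172422 (Mcm7). The others are at chr2:132249162-132253314 (Pcna), chr11:98992943-99024189 (Top2a), chr7:135689784-135716361 (Mki67) and chr7:38097984-38107534 (Ccne1). Mcm7 hosts the microRNA genes Mir25, Mir93 and Mir106b and overlaps Cops6 and Ap4m1 on the other strand. The strand setting of the counting is not stated in the sources used here, so reads of Mcm7 and of these neighbours cannot be told apart where they overlap. Top2a overlaps the gene models Gm23451 and Gm26394, and Mki67 overlaps Gm45240. Pcna has processed copies elsewhere in the genome, of which Pcna-ps2 was counted at 4.95, 2.41 and 1.63 CPM in the 3 stages, so the split of reads between Pcna and its copies is uncertain.

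Licensing genes and mitotic genes are textbook targets of different promoter elements, E2F sites and the cell cycle homology region (CHR). Promoter stretches are shown for the 4 genes whose windows held E2F-type letters and, further below, for Top2a and Mki67. The sequences come from RefSeq windows on GRCm38.p6, from 250 bases before to 50 bases after each transcription start. The table held windows for 9 of the 10 genes (10 windows, with 2 for Mcm7), and Mcm4 had none. Capitals mark E2F-type letters, searched as TTTCCCGC, TTTCGCGC, TTTGCCGC and TTTGGCGC on both strands, where neighbouring matches can overlap. All are written 5' to 3' on the gene's strand.
Mcm5, the 250 bases before the start, chr8:75109259-75109508, plus strand: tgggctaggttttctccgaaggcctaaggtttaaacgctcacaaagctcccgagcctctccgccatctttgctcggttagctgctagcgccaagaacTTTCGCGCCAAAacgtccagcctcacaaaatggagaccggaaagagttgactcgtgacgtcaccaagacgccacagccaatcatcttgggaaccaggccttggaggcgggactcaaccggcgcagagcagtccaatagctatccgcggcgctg
Mcm6, the 250 bases before the start, chr1:128359706-128359955, minus strand: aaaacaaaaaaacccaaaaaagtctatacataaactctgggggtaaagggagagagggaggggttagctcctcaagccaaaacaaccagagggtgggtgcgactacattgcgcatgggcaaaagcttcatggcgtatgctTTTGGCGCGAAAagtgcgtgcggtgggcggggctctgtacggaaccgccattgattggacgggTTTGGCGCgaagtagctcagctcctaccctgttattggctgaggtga
Mcm7, 30 bases, chr5:138172030-138172059, minus strand: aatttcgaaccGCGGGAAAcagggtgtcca
Mcm3, 30 bases, chr1:20820266-20820295, minus strand: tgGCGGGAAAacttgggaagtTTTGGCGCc
These letters were in the windows of 4 of the 9 genes, Mcm3, Mcm5, Mcm6 and Mcm7, and in 2.26% of all 32851 RefSeq windows of that length. In Mcm5 and Mcm6 the marked block holds a pair of overlapping matches in opposite directions, and Mcm6 has another match nearer the start. Mcm7 also has a match after the start that is not shown. The Mcm7 stretch lies in annotated untranslated exons of Mcm7 and, on the other strand, of Ap4m1, and the Mcm3 stretch in an untranslated exon of Mcm3. A match is a description of the letters and was not tested as a site.

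Mcm2 to Mcm7 together had a median summed level per cell of 1376 CPM in the E17.5 cells, 1050 CPM (lowest 377, highest 1673) in the P2.5 cells and 1123 CPM (lowest 867, highest 1621) at P6.5. Mcm3 had a lowest, median and highest value per cell of 67.4, 251.3 and 480 CPM at E17.5. Values at P2.5 were 18.4, 107.4 and 285.8 CPM, and the P6.5 cells had 39.2, 82.9 and 150.6 CPM. Its CPM of the stage sums were 266.3, 113.4 and 85.6. Mcm3 was the subunit with the lowest ratio from E17.5 to P2.5 (2.35-fold lower, log2 ratio -1.23). For this gene, 10 of 22 E17.5 cells were above every P2.5 cell. Such overlaps between cells, here and for the genes below, were not computed for all genes.

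Mcm5 had a lowest, median and highest value of 225.8, 358 and 999 CPM at E17.5. In the P2.5 cells it was at 24.2, 231.9 and 535 CPM, and the P6.5 cells had 192.99, 306.4 and 466 CPM. Of the P2.5 cells 4.44% reached the E17.5 median, while 42 of 47 P6.5 cells reached the P2.5 median. Summed over each stage, its level was 490, 244.2 and 310.7 CPM. The log2 ratio from E17.5 to P2.5 was -1.004, just past the 2-fold limit, and fell short of it when any of libraries 2, 6, 8, 13, 15, 18 and 21 was left out alone (-0.99 to -0.92), and also without the 4 marker-poor libraries together (-0.96).

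Mcm6 had a lowest, median and highest value of 41.4, 392 and 911 CPM at E17.5. The P2.5 cells had 43.5, 260 and 514 CPM, and the P6.5 cells had 181.3, 300.5 and 548 CPM. The stages overlapped, with 6.83% of P2.5 cells at or above the E17.5 median and 37 of 47 P6.5 cells at or above the P2.5 median. Its stage sums were 440, 270 and 313.7 CPM, a log2 ratio of -0.71 from E17.5 to P2.5 (-0.50 without the 4 marker-poor libraries) and 0.22 from P2.5 to P6.5.

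Mcm7 had a lowest, median and highest value of 13.3, 110 and 551 CPM at E17.5. Among P2.5 cells these were 5.13, 107.9 and 235.8 CPM, and the P6.5 cells had 51.96, 127.2 and 212.3 CPM. Its medians at E17.5 and P2.5 were close, although the stage sums were 212.7 and 110.7 CPM, a log2 ratio of -0.94. The E17.5 sum rested on few libraries: the ratio was -0.42 without the 4 marker-poor libraries, of which libraries 8 and 15 held 551 and 481 CPM. Library 18, which was not marker-poor, held 544 CPM. With the mean over cells of CPM in place of the sums, the ratio was -0.66. From the sums, it passed 2-fold when library 3 or library 6 was left out alone (-1.001 and -1.01).

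Mcm2 is the subunit whose direction depended on those 4 libraries. It had a lowest, median and highest value of 31.3, 142.3 and 963 CPM at E17.5. After birth, the P2.5 cells had 16.7, 201.1 and 513 CPM, and the P6.5 cells had 77.4, 163.3 and 245.5 CPM. By stage, its sums were 300.9, 204.98 and 165.04 CPM, so P2.5 was lower by the sums (log2 ratio -0.55) and higher by the medians. At E17.5 the level was highest in libraries 17 (963 CPM), 8 (716 CPM) and 15 (705 CPM), and the last 2 were among the marker-poor libraries. Without the 4 such libraries the log2 ratio from E17.5 to P2.5 was 0.03. The median of Mcm2 was 483 CPM in those 4 libraries and 118.5 CPM in the other 18, and 79.9% of P2.5 cells were at or above the E17.5 median.

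Mcm4 had a lowest, median and highest value of 18.9, 133.5 and 344 CPM at E17.5. Cells of P2.5 were at 0, 108.5 and 289.3 CPM, and the P6.5 cells had 41.4, 88.8 and 154.2 CPM. At P2.5, 1 cell had 0 counts of it. The stage sums of 162.7, 115.3 and 93.6 CPM gave log2 ratios of -0.50 and -0.30, both within 2-fold.

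The plot of the E17.5 libraries sets these values beside the marker sums.

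**Figure D2:**
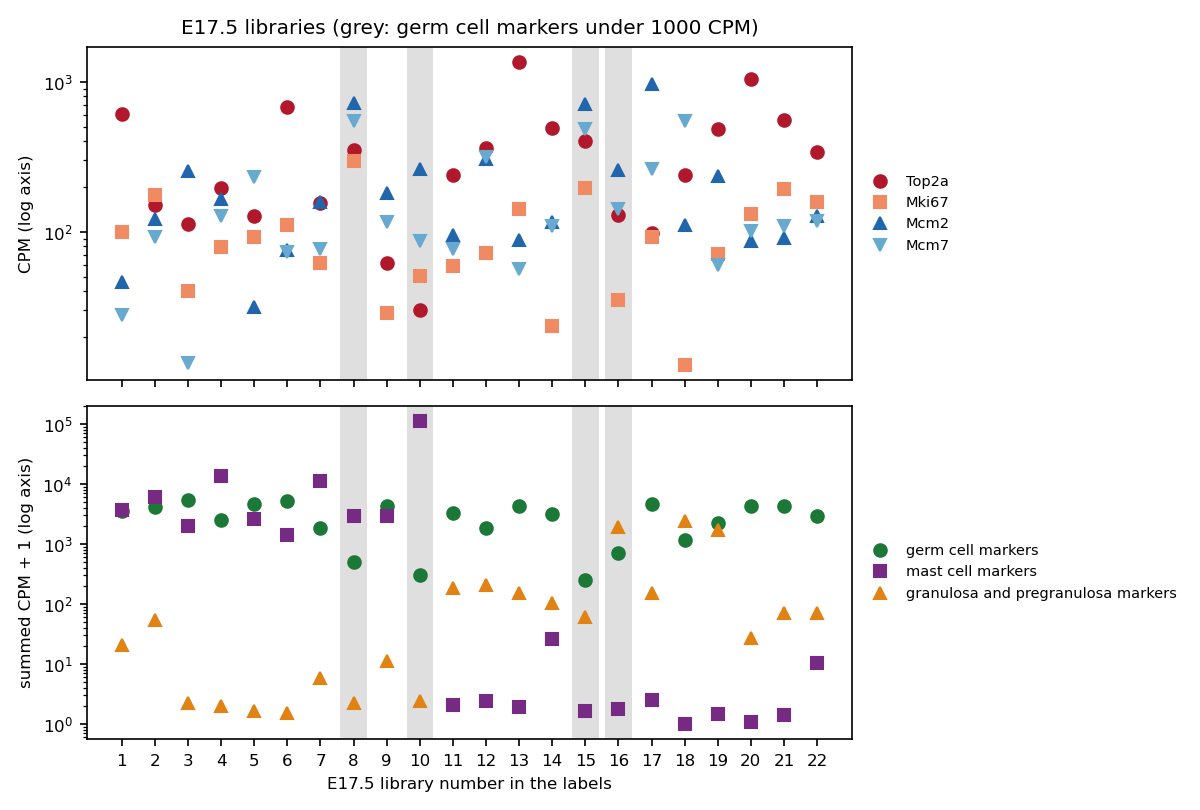
Upper panel, CPM of Top2a, Mki67, Mcm2 and Mcm7 in each of the 22 E17.5 libraries (log axis); lower panel, summed CPM + 1 of germ cell, mast cell and granulosa markers (log axis). Grey bands mark the 4 libraries under 1000 CPM of germ cell markers. Mcm2 was at 716 and 705 CPM in libraries 8 and 15 inside the bands and at 963 CPM in library 17 outside them, and Top2a was highest in libraries 13 and 20.

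The authors' FPKM values, which divide by gene length, allow the subunit transcripts to be set against each other although the proteins act in equal numbers. The lengths used are not stated in the sources used here, and the order of the subunits depends on them. Mcm3 and Mcm4 have 3752 and 3589 annotated exonic bases. At P2.5 their stage sums were 113.4 and 115.3 CPM, whereas their median FPKM values were 59.24 and 29.75. Mcm6 and Mcm5 took the largest shares of the summed Mcm2 to Mcm7 FPKM in the median cell, 24.5% and 23.6% at E17.5, 24.6% and 20.96% at P2.5, and 27.6% and 28.9% at P6.5. Mcm4 was the subunit with the lowest FPKM in 10 of 22 E17.5 cells, 64.2% of P2.5 cells and 38 of 47 P6.5 cells. The share of Mcm3 had a median of 20.97% at E17.5, 16.8% at P2.5 and 10.9% at P6.5, and its quartile ranges at E17.5 (17.1% to 29.99%) and P6.5 (8.81% to 12.6%) did not overlap. That of Mcm2 had medians of 8.53%, 16.3% and 12.2%. Within a cell the highest subunit was a median of 8.55 times the lowest at E17.5, 3.73 times at P2.5 (without the 1 cell with no Mcm4) and 4.96 times at P6.5. At P6.5 the highest subunit was Mcm5 in 29 cells and Mcm6 in 18, which together are all 47.

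**Figure D3:**
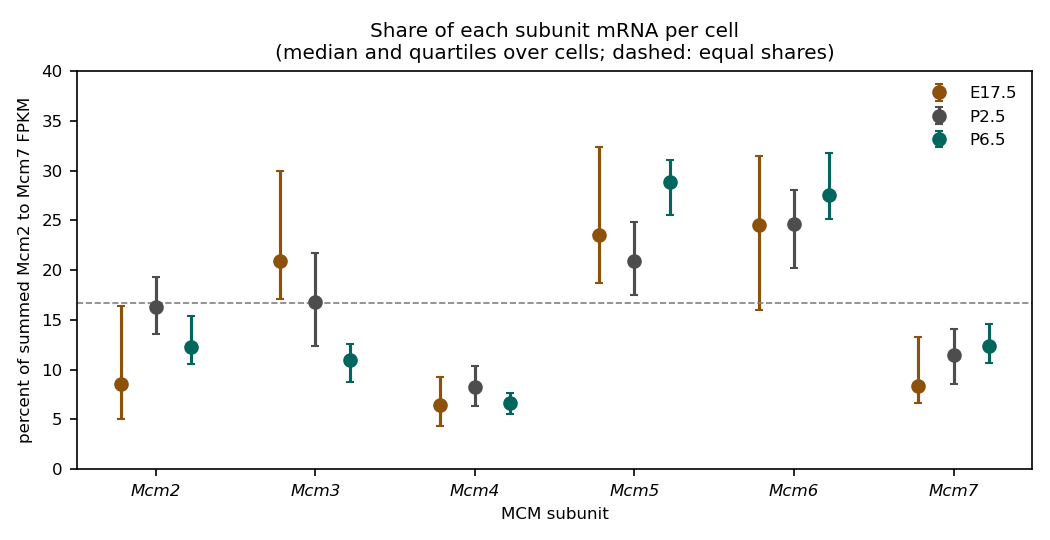
Share of each subunit in the summed Mcm2 to Mcm7 FPKM of a cell, in percent; points are medians and bars the quartiles over the cells of each stage, and the dashed line is an equal share. Mcm5 and Mcm6 lie above the line at all 3 stages and Mcm4 and Mcm7 below it, and Mcm3 moves from 20.97% to 10.9%.

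By median FPKM, Pcna ranked first among the 10 genes at each stage, at 181.4, 131.99 and 124.7. This order also depends on the lengths used for FPKM. The Pcna values were above 95.2%, 91.2% and 90.9% of the genes with a median FPKM of at least 1. Mcm5 and Mcm6 followed at P2.5 and P6.5. The quartile ranges of these 2 overlapped at both stages, so their order is not separated by the spread over cells. Top2a held the fifth place at E17.5 (67.5) and the ninth at P2.5 (7.16) and P6.5 (5.84), and Mki67 was last at each stage (6.83, 3.24 and 2.03). Ccne1 lay below Top2a at E17.5 (12.5) and above it at P2.5 (7.59) and P6.5 (9.31), and the quartile ranges of Ccne1 and Top2a overlapped at all 3 stages.

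Pcna, the clamp, had the narrowest spread of the 10 genes. Its lowest, median and highest values were 103.6, 206.7 and 446 CPM at E17.5. The P2.5 cells had 57.8, 164.8 and 371 CPM, and the P6.5 cells had 99.8, 155.3 and 193.2 CPM. As stage sums its levels were 237.5, 169.1 and 151.1 CPM. The coefficient of variation over cells was 42.4%, 27.1% and 15.5%, where the counting of reads alone gives 2.95%, 2.93% and 2.85%. For Mcm5 it was 44.1%, 34.2% and 17.8%, and for each of the 10 genes it was lower at P6.5 than at E17.5. Cells of the 3 stages also differ in number and RNA content, and the part of either in this spread was not tested.

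Top2a had the lowest CPM ratio of the 10 genes from E17.5 to P2.5. It had a lowest, median and highest value of 29.9, 290 and 1350 CPM at E17.5. At P2.5 the values were 0, 32.2 and 142.8 CPM, and the P6.5 cells had 2.68, 27.1 and 66.6 CPM. At P2.5, 0 cells reached the E17.5 median, and 16 of 22 E17.5 cells were above every P2.5 cell. Such cells were not counted for all genes, so this separation is not read as particular to Top2a. The stage sums were 398, 37.8 and 30.1 CPM, a log2 ratio of -3.40 from E17.5 to P2.5 (Poisson 95% interval -3.41 to -3.38, which covers the counting of reads only). Without the 4 marker-poor libraries it was -3.60, or 12.1-fold lower. Libraries 1 to 10 of E17.5 had a median of 153.7 CPM of Top2a and libraries 11 to 22 one of 383 CPM. Their summed growing-oocyte genes had medians of 842 and 57.3 CPM. At E17.5 that sum was mostly Kit, at 597 CPM in the stage sum, with Gdf9 next at 7.19 CPM. Libraries 1 to 10 also had at least 1390 CPM of mast cell markers. Library 10 had the highest value of both sums (3638 and 111912 CPM). Kit was not summarised per library, so the sum is not read as growth. The libraries with the most Top2a, 13 and 20, had the highest and the lowest sum of erythroid markers (5863 and 214.3 CPM), and the part of other cells' RNA in the E17.5 levels was not tested.

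Mki67 had a lowest, median and highest value of 12.9, 85.9 and 296.2 CPM at E17.5. For the P2.5 cells these were 0, 33.1 and 118.8 CPM, and the P6.5 cells had 6.06, 21.1 and 63.8 CPM. At P2.5, 5.8% of cells reached the E17.5 median, and 7 of 22 E17.5 cells were above every P2.5 cell, again without such counts for all genes. The sums of Mki67 over the stages were 121.2, 36.7 and 22.9 CPM. The P2.5 sum was 3.302-fold lower than that of E17.5 (log2 ratio -1.72), and 2.68-fold lower (-1.42) without the 4 marker-poor libraries, 1 of which (library 8) held the highest value, 296.2 CPM. The P2.5 cell with the most Top2a (142.8 CPM) had 2.83 CPM of Mki67, and the one with the most Mki67 (118.8 CPM) had 0 counts of Top2a. Their germ cell markers summed to 3613 and 3504 CPM. These cells were picked out after their values were seen.

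The promoters of these 2 genes are shown for the CHR-type letters TTTGAA, searched on both strands and in capitals.
Top2a, the 250 bases before the start, chr11:99024190-99024439, minus strand: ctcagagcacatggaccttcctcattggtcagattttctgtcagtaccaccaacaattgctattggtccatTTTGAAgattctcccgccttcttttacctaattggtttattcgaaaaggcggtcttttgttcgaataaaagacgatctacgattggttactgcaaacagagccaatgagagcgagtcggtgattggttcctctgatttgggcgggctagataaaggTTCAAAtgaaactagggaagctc
Mki67, the 250 bases before the start, chr7:135716380-135716629, minus strand: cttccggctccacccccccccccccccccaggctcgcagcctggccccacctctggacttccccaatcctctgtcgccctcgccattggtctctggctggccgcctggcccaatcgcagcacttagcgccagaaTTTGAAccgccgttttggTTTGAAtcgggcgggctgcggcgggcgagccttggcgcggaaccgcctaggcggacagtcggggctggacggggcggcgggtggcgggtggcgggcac
The letters were in the windows of 3 of the 9 genes, Top2a, Mki67 and Mcm2 (3 of 10 windows), and in 17.9% of all windows. The letters CCAAT, on either strand, were in the windows of 8 of the 9 genes (9 of 10 windows) and in 37.4% of all windows. The Top2a window held 6 of them. The Mcm2 window had the CHR-type letters and none of the E2F-type letters, and no window of the 9 genes held both.

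Ccne1, the cyclin, had the widest relative spread of the 10 genes at P2.5. Its lowest, median and highest values were 2.55, 24.02 and 114.5 CPM at E17.5. P2.5 cells were at 0, 15.3 and 91.8 CPM, and the P6.5 cells had 3.997, 17.8 and 59.1 CPM. The ranges of the 3 stages overlapped, and 13 P2.5 cells had 0 counts. The stage sums were 38.3, 21.2 and 19.9 CPM, log2 ratios of -0.85 and -0.10. The coefficient of variation at P2.5 was 87.03%, with 9.05% from counting.

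Relative to the spike-in counts, most of these genes were higher at each later stage. From E17.5 to P2.5, 8 of the 10 genes were at least 2-fold higher per spike-in count and 0 at least 2-fold lower, in a comparison where 77.5% of all measured genes were higher and 3.78% lower. The scale itself adds 2.51 to every log2 ratio. Top2a was lower (-0.88), Mki67 was within 2-fold (0.79), and the other 8 genes were between 1.28 (Mcm3) and 2.02 (Pcna). The median of the 10 genes was 1.63, against 2.26 over all measured genes. Without the 4 marker-poor libraries 9 genes were higher, against 78.9% of measured genes, and 2.51% of measured genes were at least 2-fold lower. Top2a was then at -0.998 (-0.98 with 0.5 CPM added), just short of the limit. Mki67 passed 2-fold also when library 8 alone was left out (1.12).

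Top2a had a lowest, median and highest value per 1000 spike-in counts of 2.60, 24.1 and 100 counts at E17.5, 0, 14.6 and 103.99 at P2.5, and 9.62, 107.2 and 259.2 at P6.5. The E17.5 and P2.5 cells overlapped across nearly the whole range on this scale, and 30.4% of P2.5 cells were at or above the E17.5 median. For Mcm6 the lowest, median and highest values were 4.29, 28.8 and 102.2 at E17.5, 3.65, 126.2 and 708 at P2.5, and 598, 1024 and 3183 at P6.5. Of the P2.5 cells, 60.8% were above every E17.5 cell, and 89.4% of the P6.5 cells were above every P2.5 cell. These shares were not computed for all genes. Pcna had medians of 15.3, 82.9 and 501. The summed Mcm2 to Mcm7 counts had medians of 120.99, 498 and 3602 per 1000 spike-in counts.

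From P2.5 to P6.5 all 10 genes were at least 2-fold higher per spike-in count, between 2.10 (Mki67) and 3.13 (Mcm5) on the log2 scale, as were 98.8% of all measured genes, while 0.0137% were at least 2-fold lower. The scale adds 2.78 here. Every P6.5 cell was at or above the P2.5 median for 9 of the 10 genes, and 46 of 47 were for Top2a. Such cells were not counted for all genes, so these counts are not read as particular to the 10 genes. In CPM the same comparison stayed within 2-fold. Mcm5 (0.35), Mcm7 (0.25) and Mcm6 (0.22) were higher, and Mki67 (-0.68) and Mcm3 (-0.41) lower. These 5 kept their direction with TMM factors and with median-of-ratios factors, which moved the median of all genes by 0.23 and 0.32. The values of Mcm2 (-0.31), Mcm4 (-0.30), Top2a (-0.33), Pcna (-0.16) and Ccne1 (-0.10) did not keep theirs: median-of-ratios factors turned all 5 positive (0.01 to 0.24), and TMM factors turned Pcna (0.07) and Ccne1 (0.14).

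**Figure D4:**
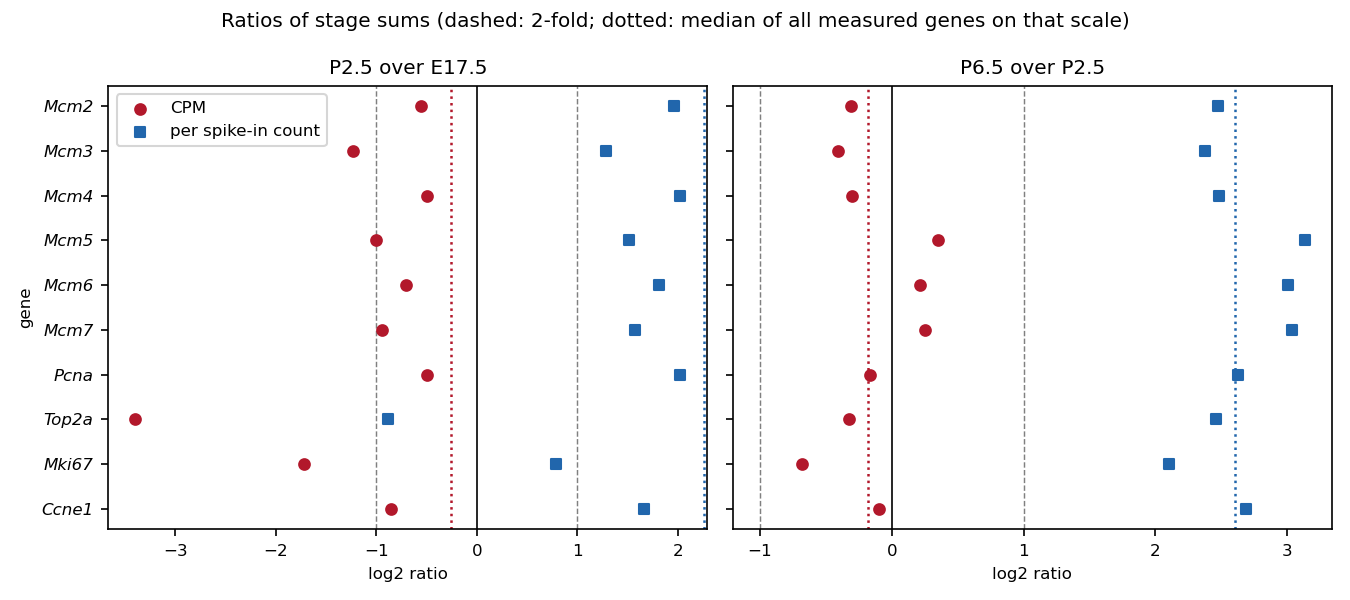
Log2 ratio of the stage sums of each gene in CPM (red circles) and per spike-in count (blue squares), for P2.5 over E17.5 and P6.5 over P2.5; dashed lines mark 2-fold and dotted lines the median of all measured genes on that scale. Top2a lies at -3.40 in CPM and -0.88 per spike-in count in the left panel, and all 10 genes lie within 2-fold in CPM in the right panel, where the sign of Mcm2, Mcm4, Top2a, Pcna and Ccne1 depends on the scaling.

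The factors that load and fire the helicase moved in both directions between E17.5 and P2.5 in CPM. Of 10 origin licensing partners, 2 were at least 2-fold higher and 1 lower (median log2 ratio -0.21). Orc1, the largest subunit of the origin recognition complex, was at 24.8 and 86.3 CPM (1.78) and Orc5, another subunit, at 84.2 and 229.1 CPM (1.44). Mcmbp, an MCM-binding protein, was at 100 and 31.4 CPM (-1.66). Of these 10 partners, 2 were at least 2-fold lower without the 4 marker-poor libraries. Of 12 helicase activation genes 2 were higher and 4 lower, with a median of -0.08, where 22.6% of all measured genes were higher and 32.4% lower. Leaving out the 4 marker-poor libraries gave 3 higher and 5 lower, with a median of -0.36. The GINS complex, a partner of the active helicase, had members at both ends. Its Gins2 (25.7 and 148.7 CPM, 2.51) and Gins4 (50.3 and 186.5 CPM, 1.88) were higher at P2.5, and Gins3 (72.7 and 17.52 CPM, -2.02) was lower.

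Among 24 replication fork genes 4 were at least 2-fold higher and 0 lower, against 22.6% and 32.4% of all measured genes. Their median was 0.29, against -0.26 over all genes and -0.89 over the 10 genes above. Without the 4 marker-poor libraries 5 fork genes were higher, against 23.1% of all measured genes. Rpa1, which binds single-stranded DNA, was at 108.5 and 306.5 CPM (1.49) and Pold2, a subunit of DNA polymerase delta, at 83.3 and 195.8 CPM (1.23). Of the 3 MCM relatives outside the hexamer, Mcmdc2, which acts in meiotic recombination, was at 46.3 and 1.2002 CPM (-4.78). Mcm8 (122.2 and 141.6 CPM, 0.21) and Mcm9 (32.6 and 26.8 CPM, -0.28) were within 2-fold. Of 6 nucleotide supply genes, thymidylate synthase (Tyms, 1.21) was higher, and thymidine kinase (Tk1, -1.24) and a ribonucleotide reductase subunit (Rrm1, -1.07) were lower. Without the 4 marker-poor libraries, 0 of the 6 nucleotide supply genes were at least 2-fold lower.

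Of 20 mitotic markers, 7 passed 2-fold upwards and 1 downwards at P2.5, with a median of 0.48. Among all measured genes, 22.6% were higher and 32.4% lower. Without the 4 marker-poor libraries, 9 mitotic markers were higher and 3 lower, against 23.1% and 32.7% of all measured genes. Ube2c, a ubiquitin-conjugating enzyme of the anaphase-promoting complex, was at 133.98 and 908 CPM (2.76) and Prc1, a spindle midzone protein, at 28.3 and 172.4 CPM (2.59), whereas Anln, a protein of the cleavage furrow, was at 123.2 and 53.8 CPM (-1.19). Of 9 cyclins and kinases of G1 and S phase 0 were higher and 5 lower (median -2.08), or 6 lower without the 4 marker-poor libraries. Among them Cdk6, a kinase of G1, was at 105.4 and 3.14 CPM (-4.86) and its partner Ccnd2 at 100 and 4.13 CPM (-4.45), while Ccnd3 was at 76.4 and 113.5 CPM (0.57). Summed granulosa markers reached 2444, 1915 and 1713 CPM in E17.5 libraries 18, 16 and 19, and their part in these levels was not tested.

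Of 13 E2F and pocket protein genes 2 were higher and 4 lower, with E2f5 at 86.1 and 223.9 CPM (1.37) and Rbl1, a pocket protein, at 42.5 and 9.41 CPM (-2.12). Among all measured genes, 22.6% were higher and 32.4% lower. Without the 4 marker-poor libraries, 1 of the 13 was higher and 2 were lower, against 23.1% and 32.7% of all measured genes. Of 7 CDK inhibitors, Cdkn2b was at 0.45 and 9.58 CPM (3.40) and Cdkn2c at 16.4 and 1.53 CPM (-3.06), and the other 5 were within 2-fold. Of the 7, 2 were higher and 2 lower without the 4 marker-poor libraries. For comparison, 9 of 11 genes of premeiotic cells and meiotic prophase passed 2-fold downwards, such as Stra8 (82.7 and 0.095 CPM), and 9 of 10 growing-oocyte genes were higher. Per spike-in count, 9 of the 10 origin licensing partners, all 24 fork genes and all 20 mitotic markers passed 2-fold upwards. So did 9 of 12 helicase activation genes, all 6 nucleotide supply genes, 11 of 13 E2F and pocket protein genes and 6 of 7 CDK inhibitors. Of the 9 cyclins and kinases of G1 and S phase, 4 were higher and 3 lower, or 0 lower without the 4 marker-poor libraries. Of the 11 genes of premeiotic cells and meiotic prophase, 3 were higher and 5 lower. Among all measured genes, 77.5% were higher and 3.78% lower on this scale.

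From P2.5 to P6.5, the replication lists had few genes past 2-fold in CPM, where 6.9% of all measured genes were higher and 9.3% lower. In the same comparison 9 of the 10 growing-oocyte genes were higher (median 2.39). Of 10 measured genes of premeiotic cells and meiotic prophase, 3 were lower. None of the 10 origin licensing partners and none of the 24 fork genes passed 2-fold, with medians of -0.25 and -0.13 against -0.18 over all genes. Cdt1, the loading factor, was at 106.5 and 181.2 CPM (0.76) and Orc1 at 86.3 and 46.998 CPM (-0.87). Cdc7, the kinase that fires licensed origins, was at 99.5 and 38.96 CPM (-1.34) and was the only helicase activation gene of 12 past 2-fold. Tk1 was at 17.8 and 71.4 CPM (1.98), and of the 20 mitotic markers only Ccnb2, a mitotic cyclin, passed 2-fold (214.97 and 101.6 CPM, -1.08).

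Across the cells of a stage, the levels of the 6 subunits were only loosely related to each other. The 15 pairs had Spearman coefficients (rho) of CPM between 0.07 and 0.34 over the P2.5 cells (median 0.18) and between -0.13 and 0.38 over 47 P6.5 cells (median 0.11). Over the 22 E17.5 libraries, which differ in their marker sums, they lay between -0.10 and 0.53 (median 0.28). These cells share a stage, a depth range and CPM scaling, and the coefficients are descriptions. Top2a and Mki67 had a rho of -0.02 over the P2.5 cells and 0.01 over the P6.5 cells, with coefficients of variation at P2.5 of 63.5% and 67.2% against 6.75% and 6.59% from counting.

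At P2.5, where the summed growing-oocyte genes ranged from 2184 to 24448 CPM, Mcm5 had a rho of 0.34 with that sum, Mcm6 0.29 and Pcna -0.34. The largest parts of the sum at P2.5 were Padi6 (3567 CPM in the stage sum), Nlrp5 (1818 CPM) and Kit (1495 CPM). Of the growing-oocyte genes, Kit was lower at P6.5 than at P2.5 (log2 ratio -0.42) and the other 9 were higher. With total counts the rho of Mcm5, Mcm6 and Pcna was 0.35, 0.18 and -0.12. After thinning to 400000 counts the rho with the growing-oocyte sum was 0.34, 0.29 and -0.33. Pcna had a rho of 0.39 with the summed mitotic markers and 0.37 with the germ cell markers. At P6.5 the rho with the growing-oocyte sum was -0.03 for Mcm5, -0.28 for Mcm6, -0.08 for Pcna and -0.38 for Mcm2.

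**Figure D5:**
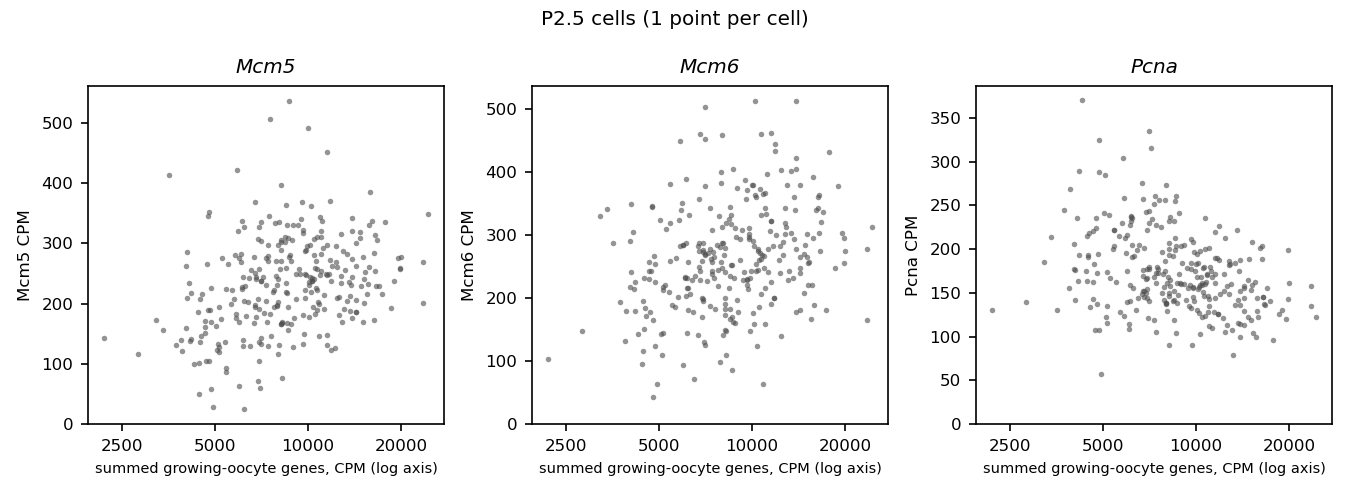
CPM of Mcm5, Mcm6 and Pcna (vertical axes) against the summed CPM of 10 growing-oocyte genes (log axis) in the P2.5 cells; 1 point is 1 cell. Mcm5 and Mcm6 are spread widely with a slight upward course (rho 0.34 and 0.29), and Pcna has a slight downward course (rho -0.34).

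Over the P2.5 cells, the genes whose CPM followed the summed Mcm2 to Mcm7 most closely, among 7164 named protein-coding genes with a mean of at least 20 CPM, were Kdm1b (rho 0.55), Psmd2 (0.54), Piwil2 (0.52), Hdac6 (0.51) and Iars (0.51). Their own rho with total counts was 0.27 to 0.34, and that of the MCM sum was 0.25. Over the 47 P6.5 cells the same genes had a rho of -0.20, 0.06, 0.03, -0.15 and 0.02 with the MCM sum.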

How the data were processed

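Counts per gene and FPKM values (fragments scaled to transcript length and library size) were deposited by the authors for each library. The submitters' processing notes name STAR 2.7.10b, HTSeq 0.13.5, RSEM 1.3.3 and mm10, without saying which of the tables came from which of these tools. The deposited counts are whole numbers over 54658 gene rows and 92 ERCC rows. The deposited FPKM values sum to 636846 to 1247280 per library and were used to compare genes with each other and as an alternative scale.

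CPM of a stage came from the counts of all its cells added up, divided by their total over genes. P2.5 libraries were taken as 1 cell where the median chi-square of their counts over genes was under 1.5. The 24 such pairs had 0.686 to 1.03, against 0.455 for sampling alone and at least 3.39 in 300 random pairs. A gene counted as measured with at least 1 CPM in either stage and counts in at least 3 cells. Ratios for the 2-fold limit and for lists had 0.5 CPM added. Intervals of the ratios are exact conditional Poisson 95% intervals and cover the counting of reads only; without molecular identifiers they are too narrow for molecules. Intervals of shares cover the drawing of cells, taken as independent. The ratio per spike-in count is the CPM ratio plus the log2 ratio of the stage medians of gene counts per ERCC count. With 1 sample per stage no test was run and no difference between stages has a replicate check.

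The 10 genes and the 21 lists were chosen with earlier results of these data known. Named beside the 10 genes were up to 2 genes at either end of each list's ratio with at least 5 CPM in the higher stage, and the 5 genes most like the summed MCM level. Lists not described in the text served as markers of other cell types. TMM factors came from edgeR 4.0.16 in R 4.3.3, and no edgeR test was run. Other steps used Python 3.11.15, numpy 2.4.6, pandas 2.3.3, scipy 1.17.1 and matplotlib 3.10.9. Gene positions are from GENCODE M21 and promoter windows from RefSeq. Protein sequences were not used here. The ratio code was checked on simulated data, and the interval code only on a pair of equal counts. Alternatives were other scalings, added values and filters, FPKM, means over cells, and leaving out libraries. Leaving out each E17.5 library in turn was chosen after seeing the data.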

Additional observations from a re-analysis of the deposited data

How the results depend on the processing

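From E17.5 to P2.5, 4 of the 10 genes were at least 2-fold lower in CPM, and 2 were with TMM factors, which moved the median of all genes by 0.34. Leaving out each E17.5 library in turn gave 3 to 5. With E17.5 libraries 11 to 22 alone, 1 gene (Top2a, -1.32) was at least 2-fold lower per spike-in count, where the whole stage gave 0. The shares of all measured genes past 2-fold were not computed under these settings. The counts under them are therefore not read as particular to the 10 genes. With libraries 1 to 10 alone, Top2a was at -0.18 per spike-in count. In CPM its log2 ratio was -2.89 with libraries 1 to 10 alone and -3.68 with libraries 11 to 22 alone. The cause was not tested. Mcm2 had log2 ratios of -0.63 to -0.27 when each E17.5 library was left out, and its sign changed without the 4 marker-poor libraries (0.03). The other recomputed counts among the 10 genes stayed within 1.5 times their values. Counts in the other lists were recomputed only without the 4 marker-poor libraries. In CPM, that moved them by over 1.5 times for origin licensing (1 to 2 lower) and mitotic markers (1 to 3 lower). Nucleotide supply (2 to 0 lower) and germ cell markers (1 to 3 lower) also moved. So did E2F and pocket proteins (2 to 1 higher, 4 to 2 lower) and CDK inhibitors (1 to 2 in each direction). Surface epithelium markers and genes of other organs both went from 2 to 1 lower. Per spike-in count, the cyclins and kinases of G1 and S phase went from 3 to 0 lower. Genes of other organs went from 2 to 1 higher on that scale. Immune markers went from 1 to 2 higher and from 2 to 0 lower. Surface epithelium markers went from 0 to 2 higher and from 1 to 0 lower. No paired analysis was possible because a stage is 1 sample and the numbers of the libraries only name cells. The lowest library had 435560 counts. The share of P2.5 cells with a count of Ccne1 was 95.6% without thinning, 89.1% at 400000 counts and 71.7% at 100000. The part of depth in the levels was not tested. The number of E17.5 libraries (22) and the unknown amount of spike-in limit the comparisons.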
